A study of Mus musculus with 24 samples.

Results

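The T cell receptor complex and the proteins that carry its signal were followed at the level of RNA in mouse spleen. The set held 33 genes, taken by name from a list of receptor constant regions, CD3 chains, kinases and phosphatases, adaptors and effectors, surface receptors and transcription factors, out of 55414 genes in the count tables. All 33 were present in the tables, and 28 passed the filter on low counts.

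The samples were spleen, given in the labels as splenocytes, of BALB/c mice of the CT-26 model. CT-26 is a colon carcinoma cell line derived from that strain, and the model was made by injecting the line into the right side of mice aged 8 weeks. The age at collection and the sex are not given in the sources used here. There were 4 RNA libraries titled CT-26 and 4 titled control, and as many libraries of amplified T cell receptor transcripts. The treatment field contradicts the titles: under it the 4 titled CT-26 are healthy controls, and the 4 titled control received the cells. Both fields make the same split, so the sets are called titled CT-26 and titled control, a fold change sets titled CT-26 over titled control, and none is read as tumour against healthy. The labels do not say that the libraries of a set came from separate animals, so each p measures the spread between these libraries.

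An alpha beta T cell binds antigen through 2 variable chains, each joined to a constant region. The pair has no signalling part of its own and sits among CD3 delta, epsilon, gamma and zeta chains, whose tails are phosphorylated by the kinase LCK when antigen is bound. ZAP-70 docks on those tails and phosphorylates the scaffolds LAT and SLP-76, from which calcium, Ras and protein kinase C signals spread. The CD28 family adds a second signal, and the phosphatase CD45 keeps LCK ready. Spleen holds T cells in the white pulp beside B cells, within a red pulp of macrophages, red cells and, in mice, blood-forming precursors.

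Members whose reads are hard to keep apart, or that share a stretch of the genome, are shown first as sequence. The beta chain has a pair of constant genes on chromosome 6, Trbc1 and Trbc2, 6848 bases apart in the deposited GRCm39 coordinates. Over 518 coding bases of 4 exons they differed at 23 (identity of 95.56%), of which 1 lay in the 375 bases of exon 1 and 15 in the 107 bases of exon 3. Reads that fit both genes equally were not counted for either, so these levels rest on the stretches that differ and on untranslated sequence. Exon 3 is printed from GENCODE on GRCm38, plus strand (chr6:41539229-41539335 for Trbc1 and chr6:41547772-41547878 for Trbc2), with the bases that differ in capitals.
Trbc1 exon 3: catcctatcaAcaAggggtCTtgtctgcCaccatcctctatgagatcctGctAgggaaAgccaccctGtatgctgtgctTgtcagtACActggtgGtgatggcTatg
Trbc2 exon 3: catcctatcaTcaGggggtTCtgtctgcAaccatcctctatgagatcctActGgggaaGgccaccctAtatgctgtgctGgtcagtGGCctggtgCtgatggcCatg

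The genes of the gamma, delta and epsilon chains are neighbours on chromosome 9, where Cd3g and Cd3d run apart from each other with 1354 bases between them and Cd3e lies 11400 bases beyond Cd3d. The windows around their starts, that of Cd247, the zeta chain gene, which lies on another chromosome, and that of Ptpn22, the member called higher, are printed from RefSeq on GRCm38.p6, from 250 bases before to 50 after the start on the strand of the gene. Capitals mark the letters of 5 motifs on either strand. They are TGTGGT for the RUNX factors, CTTTGA for the TCF and LEF factors, AGGAAG for the ETS factors, AGATAA for the GATA factors and CAGGTG for E-box factors.
Cd3g, chr9:44980382-44980681, minus strand: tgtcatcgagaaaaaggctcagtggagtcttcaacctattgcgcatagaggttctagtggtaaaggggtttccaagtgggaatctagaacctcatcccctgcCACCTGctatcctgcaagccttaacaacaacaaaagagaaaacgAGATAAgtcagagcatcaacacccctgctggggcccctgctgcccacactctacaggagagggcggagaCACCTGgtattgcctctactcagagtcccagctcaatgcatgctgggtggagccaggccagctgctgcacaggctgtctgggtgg
Cd3d, chr9:44981536-44981835, plus strand: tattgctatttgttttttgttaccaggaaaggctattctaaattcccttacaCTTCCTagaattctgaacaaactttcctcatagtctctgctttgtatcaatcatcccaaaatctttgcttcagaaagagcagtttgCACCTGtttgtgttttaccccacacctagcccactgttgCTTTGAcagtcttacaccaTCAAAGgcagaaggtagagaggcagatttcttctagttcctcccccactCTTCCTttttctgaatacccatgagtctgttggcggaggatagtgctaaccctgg
Cd3e, chr9:45009562-45009861, minus strand: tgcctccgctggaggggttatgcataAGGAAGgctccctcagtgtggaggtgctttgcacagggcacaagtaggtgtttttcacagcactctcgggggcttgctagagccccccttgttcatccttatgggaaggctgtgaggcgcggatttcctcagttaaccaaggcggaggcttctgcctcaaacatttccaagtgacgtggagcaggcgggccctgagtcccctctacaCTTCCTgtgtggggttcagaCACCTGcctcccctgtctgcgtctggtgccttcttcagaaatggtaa
Cd247, chr1:165788431-165788730, plus strand: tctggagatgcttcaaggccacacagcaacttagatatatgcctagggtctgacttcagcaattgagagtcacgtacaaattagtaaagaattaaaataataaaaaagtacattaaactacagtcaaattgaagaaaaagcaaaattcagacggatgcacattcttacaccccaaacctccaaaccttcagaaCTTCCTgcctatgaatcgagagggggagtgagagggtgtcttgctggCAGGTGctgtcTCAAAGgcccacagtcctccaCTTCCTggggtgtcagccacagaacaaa
Ptpn22, chr3:103859545-103859844, plus strand: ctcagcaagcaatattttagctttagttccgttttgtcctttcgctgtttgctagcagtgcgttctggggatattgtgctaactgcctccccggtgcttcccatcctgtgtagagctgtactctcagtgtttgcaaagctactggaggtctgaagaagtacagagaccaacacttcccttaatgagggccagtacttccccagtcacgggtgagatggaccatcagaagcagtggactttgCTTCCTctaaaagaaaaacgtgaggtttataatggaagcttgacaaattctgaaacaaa

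Such windows were found for 21 of the members. AGGAAG was present in 14 of them (66.67%) and in 35.15% of all 27025 windows, CAGGTG in 10 (47.62%) and in 20.03%, and CTTTGA in 8 (38.1%) and in 16.18%. AGATAA and TGTGGT were present in 2 each (9.524%), and in 11.41% and 16.92% of all windows. The 4 CD3 chain windows all held CAGGTG, and that of Ptpn22 held AGGAAG and none of the other letters. A match describes the letters of a window and is not a binding site.

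The RNA libraries were shallow, between 735298 and 1970950 counts, and mitochondrial genes took between 32.0% and 41.1% of the titled CT-26 counts and between 46.2% and 66.1% of the titled control counts. Levels are CPM, the counts of a gene scaled to a common library size, with totals adjusted by the TMM method. Markers of B cells summed to between 310 and 651 CPM in titled CT-26 libraries and between 1694 and 2582 CPM in titled control libraries, and those of natural killer cells to between 18.2 and 44.2 CPM in titled CT-26 libraries and between 173 and 384 CPM in titled control libraries. Neutrophil markers summed to between 3815 and 9181 CPM in titled CT-26 libraries, against 509 to 1654 CPM in titled control libraries. Cell cycle genes summed to between 2805 and 4131 CPM in titled CT-26 libraries, against 474 to 711 CPM in titled control libraries. Markers of red pulp macrophages were present in all libraries, at sums between 1251 and 1629 CPM in titled CT-26 libraries and between 2387 and 2766 CPM in titled control libraries. Of 10 erythroid markers, 9 were called higher by edgeR, with a median log2 fold change of 2.19. The exception, the haemoglobin gene Hbb-bs, averaged 35364.5 CPM in titled CT-26 libraries and 33689.8 CPM in titled control libraries and so held most of the erythroid sum, which lay between 27460 and 50780 CPM in titled CT-26 libraries and between 25010 and 44090 CPM in titled control libraries. The part of these shifts in the member results was not tested. Titled CT-26 1 stood apart within its set, with the highest of the 4 values for 21 of 33 members and the highest sums of B cell and natural killer markers, so results whose call turned on it are given with and without it.

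Most genes of the receptor complex and its signalling were lower in the titled CT-26 set. With edgeR's quasi-likelihood test, p adjusted over 6408 genes at 0.05, 25 of the 28 tested members fell and 1, Ptpn22, rose, while Zap70 and Vav1 did not pass. Of all genes tested, 21.6% were lower and 21.2% were higher. The median log2 fold change was -1.66 over the 28 members and -0.02 over all genes tested. The 5 members under the filter were Cd5, Cd6, Gata3, Nfatc2 and Plcg1, and without that filter all 33 were tested, 25 were lower and 1 higher, where 9.17% and 8.87% of 18766 genes were. In that fit Cd5 passed and Fyn did not. The 4 titled CT-26 libraries all lay below the 4 titled control libraries for 25 of the 33 members and all above for Ptpn22. Among the 28 tested, 24 lay below, where 18.9% of all tested genes did. In bulk RNA scaled to library totals, a smaller share of RNA from T cells and less receptor RNA per T cell cannot be told apart.

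**Figure D1:**
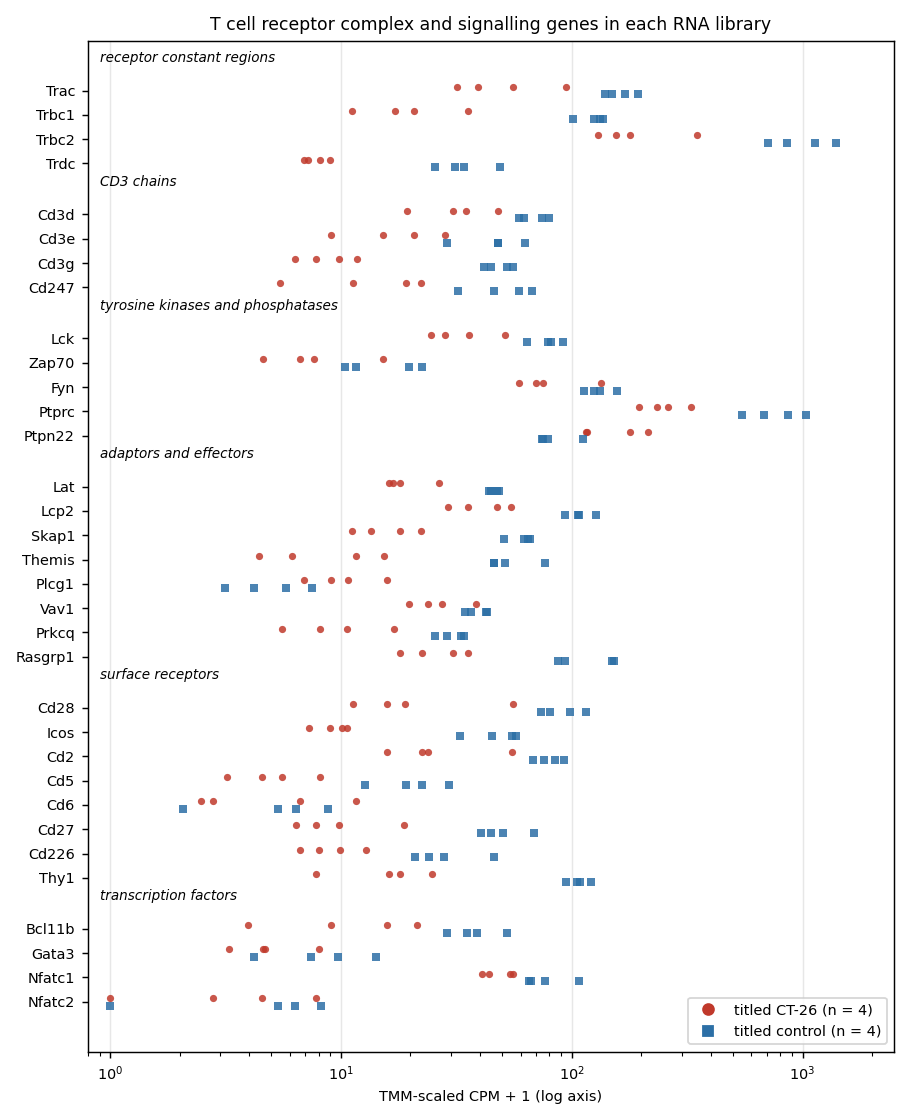
Level of each of the 33 members in every RNA library (horizontal log axis, TMM-scaled CPM + 1), with titled CT-26 libraries as circles above titled control libraries as squares for each gene. The sets do not overlap for 26 members, with Ptpn22 as the one whose titled CT-26 libraries are higher.

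**Figure D2:**
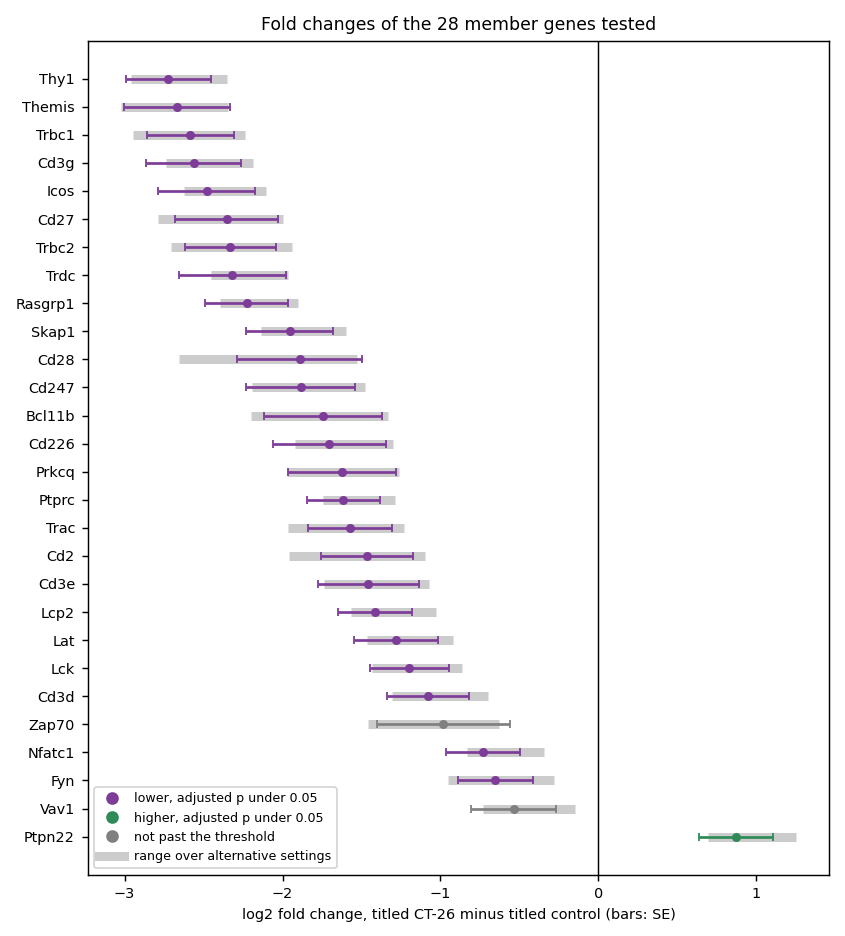
Log2 fold change of the 28 tested members, titled CT-26 over titled control (points, horizontal axis) with bars for the standard error and a grey band for the range over 17 other settings, sorted by size. Ptpn22 at 0.87 is the only point above 0, and Thy1 at -2.72 is the lowest.

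The constant regions of the receptor itself were lower in every titled CT-26 library than in any titled control library. Trac (ENSMUSG00000076928, chr14:54457978-54461663, GRCm39, plus strand), the alpha chain constant gene, had 93.7, 30.9, 38.4 and 54.5 CPM in titled CT-26 libraries 1 to 4, against 148, 169, 192 and 138 CPM in titled control libraries 1 to 4. No library crossed over, and titled CT-26 1 was the nearest to the titled control levels. Its log2 fold change was -1.57 ± 0.27 (SE), with an edgeR adjusted p of 2.58e-05. Trbc1 (ENSMUSG00000076490, chr6:41515152-41516815), whose exon 3 is printed above, had 34.5, 16.2, 19.7 and 10.2 CPM in titled CT-26 libraries, against 131, 136, 124 and 99.8 CPM in titled control libraries. Even the highest titled CT-26 library was far below the lowest titled control library, and the log2 fold change was -2.58 ± 0.27 (edgeR adjusted p = 1.24e-08). Trbc2 (ENSMUSG00000076498, chr6:41523664-41525286) had 349, 154, 178 and 129 CPM in titled CT-26 libraries, against 1390.4, 1132, 854 and 707 CPM in titled control libraries. Its levels varied among libraries of each set without meeting, and the log2 fold change was -2.33 ± 0.29 (edgeR adjusted p = 5.03e-07).

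Trdc (ENSMUSG00000104876, chr14:54380308-54386325), the constant region of the delta chain carried by gamma delta T cells, lies 71652 bases from Trac. It had 6.19, 5.89, 7.15 and 7.95 CPM in titled CT-26 libraries, against 33.1, 47.8, 30.1 and 24.7 CPM in titled control libraries. These titled CT-26 levels were low and close together, and the log2 fold change was -2.32 ± 0.34 (edgeR adjusted p = 2.30e-06). Of its exonic bases, 7.84% are shared with genes on the opposite strand, and the counts were made without strand. Per kilobase of annotated exon, Trbc2 averaged 293 CPM in titled CT-26 libraries and 1475 CPM in titled control libraries, the highest level of these 4 genes in both sets. On the same per-kilobase scale Trac, Trbc1 and Trdc averaged 58.2, 26.9 and 1.76 CPM in titled CT-26 libraries, against 173, 164 and 8.78 CPM in titled control libraries. The exon length includes stretches that Trbc1 and Trbc2 share, where reads that fit both were not counted. Per-kilobase levels of Trbc1 and Trbc2 are therefore not strictly comparable with those of Trac and Trdc.

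The CD3 chains, which carry the signal of the bound receptor into the cell, were also lower, all 4 of them, by unequal amounts. Cd3g (ENSMUSG00000002033, chr9:44880870-44891729, minus strand), the gamma chain, had 5.31, 8.84, 10.7 and 6.81 CPM in titled CT-26 libraries, against 51.3, 43.5, 40.8 and 54.7 CPM in titled control libraries. The gap between the sets was wide, with a log2 fold change of -2.56 ± 0.30 (SE; edgeR adjusted p = 7.2e-08). The titled CT-26 levels rest on only 6, 12, 12 and 6 counts, against 48, 60, 38 and 91 counts in titled control libraries. Its neighbour Cd3d (ENSMUSG00000032094, chr9:44893084-44898637, plus strand), the delta chain, had 46.9, 18.4, 34.0 and 29.5 CPM in titled CT-26 libraries, against 79.0, 60.9, 58.0 and 73.4 CPM in titled control libraries. Here titled CT-26 1 came close to the titled control set, and the log2 fold change was -1.08 ± 0.26 (edgeR adjusted p = 0.00129), the smallest of the 4. Cd3d was the one CD3 chain whose call was lost under another setting, at -0.70 without TMM (edgeR adjusted p = 0.0575).

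Cd3e (ENSMUSG00000032093, chr9:44910038-44920925, minus strand), the epsilon chain, had 14.1, 8.10, 19.7 and 27.3 CPM in titled CT-26 libraries, against 47.0, 61.6, 27.9 and 46.9 CPM in titled control libraries. The highest titled CT-26 library nearly met the lowest titled control library, and the log2 fold change was -1.46 ± 0.32 (edgeR adjusted p = 0.0005). Cd247 (ENSMUSG00000005763, chr1:165616250-165704846), the zeta chain with the most tail motifs, had 21.2, 10.3, 4.47 and 18.2 CPM in titled CT-26 libraries, against 66.2, 31.2, 58.0 and 45.1 CPM in titled control libraries. The sets did not overlap, the spread within each was wide, and the log2 fold change was -1.89 ± 0.34 (edgeR adjusted p = 7.03e-05). Of the exonic bases of Cd247, 60.3% also belong to Gm16565 or, on the opposite strand, to Pou2f1, so its level is uncertain.

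The kinases and phosphatases that act on the receptor tails divided. Lck, the kinase that phosphorylates them first, had 50.4, 23.6, 34.9 and 27.3 CPM in titled CT-26 libraries, against 63.0, 90.6, 80.6 and 77.6 CPM in titled control libraries. The sets were apart, and the log2 fold change was -1.20 ± 0.25 (SE; edgeR adjusted p = 0.000281). Fyn, a related kinase that many other cell types also use, had 133, 58.2, 68.8 and 73.8 CPM in titled CT-26 libraries, against 131, 112, 124 and 156 CPM in titled control libraries. Titled CT-26 1 lay within the titled control range, and the log2 fold change of -0.65 ± 0.24 (edgeR adjusted p = 0.0269) lost its call in 8 of 17 other settings, among them the fit without TMM, at -0.28 (adjusted p = 0.428), and the fit with lane as a factor, at -0.50 (adjusted p = 0.163). Zap70, which docks on the phosphorylated tails, had 14.1, 6.63, 3.58 and 5.68 CPM in titled CT-26 libraries, against 10.7, 9.42, 21.5 and 18.6 CPM in titled control libraries. The sets overlapped through titled CT-26 1, and at -0.98 ± 0.42 Zap70 did not pass (edgeR adjusted p = 0.0598). Without titled CT-26 1 it was -1.46 (adjusted p = 0.0117) and without titled control 2 it was -1.17 (adjusted p = 0.0345), and both of those values passed.

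Ptprc, which encodes CD45 and is carried by all white blood cells, had 329, 195, 233 and 260.0 CPM in titled CT-26 libraries, against 677, 1032, 863 and 543 CPM in titled control libraries. All titled CT-26 libraries were lower, with a log2 fold change of -1.61 ± 0.23 (edgeR adjusted p = 1.83e-06). Ptpn22 (ENSMUSG00000027843, chr3:103767111-103819563), whose start window is printed above, encodes a phosphatase of blood cells that removes phosphate from LCK and ZAP-70. It had 214, 116, 114 and 178 CPM in titled CT-26 libraries, against 73.7, 78.3, 74.1 and 111 CPM in titled control libraries. The sets did not overlap, although the lowest titled CT-26 library was just above titled control 4. Ptpn22 rose by 0.87 ± 0.23 (log2, SE; edgeR adjusted p = 0.00316), and it was called higher in all 17 other settings, at 0.69 to 1.25. Ptpn22 is expressed by other white blood cells as well as T cells, and the sums of neutrophil markers given above were higher in the same libraries, where their part in this result was not tested.

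Of the 8 adaptors and effectors, 6 were lower, 1 did not pass and 1 was under the filter. Themis, which is needed for T cell development in the thymus, had 10.6, 5.16, 14.3 and 3.41 CPM in titled CT-26 libraries, against 44.9, 75.4, 45.1 and 50.5 CPM in titled control libraries, a log2 fold change of -2.67 ± 0.34 (SE; edgeR adjusted p = 2.34e-07). Rasgrp1, which switches on Ras when diacylglycerol is made, had 34.5, 21.4, 17.0 and 29.5 CPM in titled CT-26 libraries, against 92.9, 151, 148 and 86.0 CPM in titled control libraries, and fell by 2.23 ± 0.26 on the log2 scale (edgeR adjusted p = 8.15e-08). In both genes every titled CT-26 library was below every titled control library by a wide gap. Skap1, an adaptor that couples the receptor to integrins, had 21.2, 12.5, 17.0 and 10.2 CPM in titled CT-26 libraries, against 60.9, 50.02, 63.4 and 65.0 CPM in titled control libraries, with a log2 fold change of -1.96. Prkcq, the protein kinase C theta of T cells, had 15.9, 9.58, 7.15 and 4.54 CPM in titled CT-26 libraries, against 27.8, 24.6, 32.2 and 33.1 CPM in titled control libraries, with a log2 fold change of -1.62. Both passed, at edgeR adjusted p-values of 1.2e-06 for Skap1 and 0.000291 for Prkcq, and neither had overlapping sets.

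The membrane scaffold gene Lat had 25.6, 16.9, 15.2 and 15.9 CPM in titled CT-26 libraries, against 43.8, 42.8, 47.3 and 46.3 CPM in titled control libraries, with a log2 fold change of -1.28 ± 0.27 (SE; edgeR adjusted p = 0.000263). Lcp2, which encodes SLP-76, the partner of LAT, had 34.5, 27.99, 46.5 and 53.4 CPM in titled CT-26 libraries, against 126, 105, 92.4 and 106 CPM in titled control libraries, with a log2 fold change of -1.42 ± 0.23 (edgeR adjusted p = 1.43e-05). The titled control libraries were close together for Lat, and titled CT-26 1 stood above the other 3 of its set. Vav1, an exchange factor for Rac in most blood cells, had 26.5, 22.8, 18.8 and 37.5 CPM in titled CT-26 libraries, against 41.6, 33.3, 41.9 and 35.5 CPM in titled control libraries. Titled CT-26 4 lay inside the titled control range, and Vav1 did not pass at -0.54 ± 0.27 (edgeR adjusted p = 0.108), but passed without that library, at -0.73 (adjusted p = 0.0422). Plcg1, the phospholipase that LAT recruits, was under the filter with 11, 8, 9 and 13 counts in titled CT-26 libraries and 2, 9, 3 and 8 counts in titled control libraries. Without the filter its log2 fold change was 1.15, which did not pass (edgeR adjusted p = 0.123).

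Among the surface receptors 6 of 8 were called lower and 2 were under the filter. Thy1 (ENSMUSG00000032011, chr9:43954681-43959876), a surface glycoprotein of mouse T cells that other cell types such as fibroblasts also carry, had 23.9, 16.9, 15.2 and 6.81 CPM in titled CT-26 libraries, against 121, 107, 93.5 and 104.05 CPM in titled control libraries. Its log2 fold change of -2.72 ± 0.27 (SE; edgeR adjusted p = 4.47e-09) was the lowest of the 28 tested members, and the sets lay far apart. Cd28, the main costimulatory receptor, had 54.8, 10.3, 17.9 and 14.8 CPM in titled CT-26 libraries, against 97.2, 115, 79.5 and 72.8 CPM in titled control libraries. Titled CT-26 1 stood well above the other 3 of its set, and the log2 fold change was -1.89 ± 0.40 (edgeR adjusted p = 0.00123), or -2.66 without that library. Icos, a costimulatory receptor that activated T cells gain, had 7.96, 9.58, 6.26 and 9.08 CPM in titled CT-26 libraries, against 56.6, 54.4, 44.0 and 31.9 CPM in titled control libraries. No titled CT-26 library of Icos came near the titled control set, and the log2 fold change was -2.48 ± 0.31 (edgeR adjusted p = 1.73e-07).

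Cd27, a costimulatory receptor of the tumour necrosis factor receptor family that B cells and natural killer cells can also carry, had 17.7, 8.84, 5.36 and 6.81 CPM in titled CT-26 libraries, against 39.5, 43.5, 49.4 and 67.4 CPM in titled control libraries. Cd2, the adhesion receptor for CD48, had 53.9, 22.8, 21.5 and 14.8 CPM in titled CT-26 libraries, against 91.8, 66.7, 83.8 and 74.6 CPM in titled control libraries. Cd226, an activating receptor of T cells and natural killer cells, had 7.07, 11.8, 8.94 and 5.68 CPM in titled CT-26 libraries, against 44.9, 23.2, 26.9 and 19.8 CPM in titled control libraries. The sets did not overlap for any of these 3, whose log2 fold changes were -2.35 for Cd27, -1.47 for Cd2 and -1.70 for Cd226, with edgeR adjusted p-values of 9.99e-07, 0.000181 and 0.000273. Cd5, which dampens receptor signals and is also carried by a subset of B cells, was under the filter at 3.54, 2.21, 7.15 and 4.54 CPM in titled CT-26 libraries, against 11.7, 18.1, 21.5 and 28.3 CPM in titled control libraries. Its sets did not overlap, and without the filter it was lower, with a log2 fold change of -2.14 (edgeR adjusted p = 2.0e-05). Cd6, its relative on the same chromosome, had 10.6, 1.47, 1.79 and 5.68 CPM in titled CT-26 libraries, against 1.07, 4.35, 5.37 and 7.82 CPM in titled control libraries. At such levels no difference was detectable for Cd6, whose log2 fold change without the filter was 0.04 (edgeR adjusted p = 0.965).

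Of the transcription factors, 2 of 4 passed. Bcl11b, which holds T cells to their lineage, had 20.3, 2.95, 8.05 and 14.8 CPM in titled CT-26 libraries, against 51.3, 34.1, 27.9 and 37.9 CPM in titled control libraries, and its log2 fold change was -1.74 ± 0.37 (SE; edgeR adjusted p = 0.000404). The sets did not overlap, and titled CT-26 1 was again the nearest to the titled control levels. Nfatc1, which calcineurin sends to the nucleus in T cells and many other cells, had 53.1, 39.8, 42.9 and 54.5 CPM in titled CT-26 libraries, against 75.8, 64.5, 65.5 and 107 CPM in titled control libraries. Its smaller log2 fold change of -0.73 ± 0.23 (edgeR adjusted p = 0.0118) was lost without TMM, at -0.34 (adjusted p = 0.344), with lane as a factor (adjusted p = 0.103) and without titled control 4, at -0.52 (adjusted p = 0.0771). Gata3 and Nfatc2 were under the filter. Gata3, a factor of T cells and innate lymphoid cells, had 7.07, 3.68, 3.58 and 2.27 CPM in titled CT-26 libraries and 6.41, 8.70, 3.22 and 13.2 CPM in titled control libraries. Nfatc2 had 3.54, 0, 1.79 and 6.81 CPM in titled CT-26 libraries and 5.34, 4.35, 0 and 7.22 CPM in titled control libraries. Both sets overlapped at these depths, and neither passed without the filter, at -0.88 for Gata3 (edgeR adjusted p = 0.289) and -0.59 for Nfatc2 (edgeR adjusted p = 0.548).

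Libraries of both sets shared 2 of the 4 sequencing lanes. In lane 1, with 2 titled CT-26 libraries and 1 titled control library, 30 of 33 members were lower and the median difference of log2(CPM + 1) was -1.93. In lane 2, with 1 titled CT-26 library, titled CT-26 1, and 2 titled control libraries, 29 were lower and the median difference was -0.89. Ptpn22 was higher in both, by 0.94 and 1.23 on that scale. Differences within a lane were taken for the members only, so these counts have no share of all genes to be set against. With lane as a factor, edgeR called 23 members lower and 1 higher, and the fold changes of all genes moved by a median of -0.0096 from the reported fit. In that lane fit edgeR also called fewer of all genes, lower as well as higher, with 999 higher against 1359 in the reported fit. Without titled CT-26 1, it called 27 lower, and the median log2 fold change of the tested members was -1.97. There all genes moved by a median of 0.031, with 1462 lower and 1486 higher, against 1381 and 1359 in the reported fit.

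Ratios within a library ask whether members kept their proportions to each other whatever the overall level. For 12 ratios of log2(CPM + 1) fixed by name, exact two-sided permutation over 70 assignments, adjusted over the 12, found 0 differences at 0.05. As 70 assignments cannot give a p under 0.0286, a few ratios alone could not pass that adjustment, however far apart their sets. At an unadjusted p under 0.05 there were also 0 differences. The smallest p was that of Cd3g over Cd3e, with log2 ratios of -1.26, 0.11, -0.82 and -1.85 in titled CT-26 libraries, against 0.12, -0.49, 0.53 and 0.22 in titled control libraries. Those sets overlapped, and the difference of -1.05 had an exact p of 0.0571 (adjusted p = 0.343). Fyn over Lck averaged 1.25 ± 0.20 in titled CT-26 libraries and 0.74 ± 0.35 in titled control libraries (SD; exact p = 0.0857, adjusted p = 0.343). Trbc1 over Trbc2 averaged -3.28 ± 0.19 in titled CT-26 libraries and -3.01 ± 0.28 in titled control libraries (exact p = 0.171). Trdc over Trac averaged -2.71 ± 0.70 in titled CT-26 libraries and -2.25 ± 0.37 in titled control libraries (exact p = 0.343). Set against the B cell receptor gene Cd79a, Cd3e averaged -1.13 ± 0.63 in titled CT-26 libraries and -1.56 ± 0.53 in titled control libraries (exact p = 0.314). The remaining 7 ratios had exact p-values between 0.114 and 0.743, and a p above the threshold does not show that proportions were equal.

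**Figure D3:**
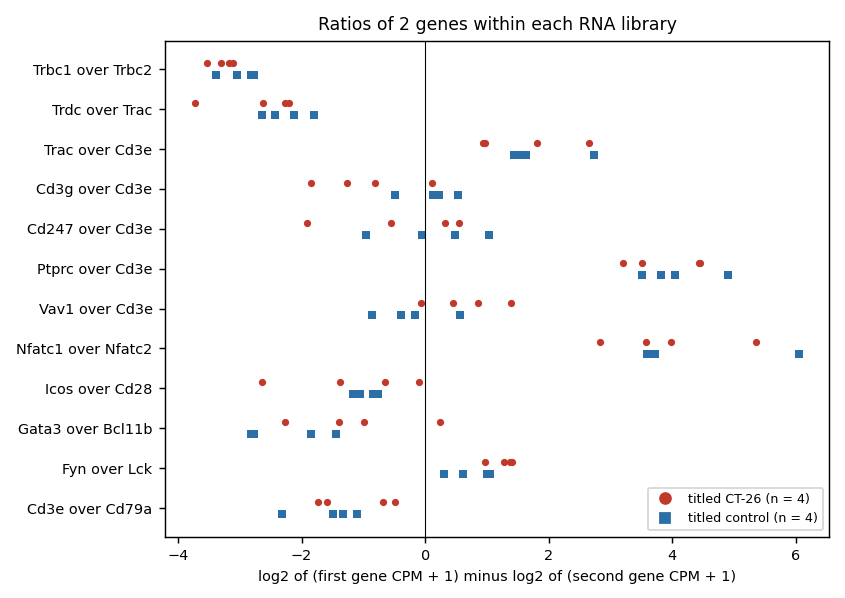
Log2 ratio of 2 genes within each RNA library for the 12 pairs, of which 11 are of 2 members and 1 sets Cd3e over Cd79a of B cells, on the horizontal axis as log2(CPM + 1) of the first gene minus that of the second. Each point is 1 library, circles for titled CT-26 above squares for titled control, and the sets overlap in every pair.

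Other genes of the pathway were read from 5 lists, the last of which is B cell receptor signalling. None of the lists was chosen from the members. Of their 80 tested genes 51 were lower and 1 was higher, but without TMM 26 were lower and 4 higher, and with lane as a factor 34 were lower and 0 higher. Of all genes tested, 21.6% were lower and 21.2% higher in the reported fit, which is 1381 and 1359 genes. Without TMM these became 725 lower and 1936 higher, and with lane as a factor both counts fell, as given above. Among 35 genes of proximal signalling, 25 were tested, 18 were lower, 0 were higher and 7 did not pass, with a median log2 fold change of -0.95, against -0.02 over all genes tested. Without the filter on low counts 20 of the 35 were lower and 0 higher, where 9.17% and 8.87% of 18766 genes were. Cd8a and Cd8b1 encode the CD8 coreceptor of cytotoxic T cells. Cd8a had 3.54, 2.95, 0.894 and 1.14 CPM in titled CT-26 libraries, against 28.8, 18.8, 29.003 and 35.5 CPM in titled control libraries. The log2 fold changes were -3.60 for Cd8a and -2.997 for Cd8b1 (edgeR adjusted p = 1.30e-07 and 2.22e-08). Cd4, the other coreceptor, which mouse macrophages and dendritic cells can also carry and which was named after its values were seen, had 141, 54.5, 88.5 and 116 CPM in titled CT-26 libraries, against 187, 180.5, 183 and 180.4 CPM in titled control libraries, a log2 fold change of -0.88 (edgeR adjusted p = 0.00309). The phosphatase gene Ptpn6 (SHP-1) had a log2 fold change of -2.09. The adaptor genes Grb2 and Sla, of wide use in blood cells, had 0.01 and 0.23 and did not pass.

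Of 33 genes of the downstream calcium, Ras and NF-kappa B branches, 27 were tested, 13 were lower, 1 was higher and 13 did not pass, with a median of -0.77. Over all genes tested, 21.6% were lower and 21.2% higher, with a median of -0.02. Without the filter on low counts fewer of the 33 were lower, 9, and 1 was higher, where 9.17% and 8.87% of 18766 genes were. Dgka, which removes the diacylglycerol that Rasgrp1 senses, had 72.5, 23.6, 25.9 and 54.5 CPM in titled CT-26 libraries, against 186, 211, 279 and 223 CPM in titled control libraries, a log2 fold change of -2.36 (edgeR adjusted p = 4.11e-07). Malt1, a protease that relays receptor signals to NF-kappa B, and the kinase gene Map2k1 fell by 1.51 and 1.37 on the log2 scale. Mapk3, the kinase ERK1, was the one gene called higher, at 0.69 (edgeR adjusted p = 0.0165), a call lost with lane as a factor and without titled CT-26 2, titled control 2 or titled control 3. Ppp3ca, a calcineurin subunit gene of wide use, had 0.11 and did not pass.

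Of 17 costimulatory and inhibitory receptors, 6 passed the filter and all 6 were lower, with a median of -2.06. Among all genes tested, 21.6% were lower. A gene could pass that filter through the set where it was high, so 6 of 6 is not a count over the list. Without the filter 10 of the 17 were lower and 0 higher, where 9.17% and 8.87% of 18766 genes were. Cd48, the ligand of CD2 found on most white blood cells, had 20.3, 18.4, 16.1 and 14.8 CPM in titled CT-26 libraries, against 97.2, 79.0, 111 and 89.0 CPM in titled control libraries, a log2 fold change of -2.41 (edgeR adjusted p = 6.24e-09). Slamf6 and Cd84, receptors of the SLAM family on lymphocytes, had log2 fold changes of -2.27 and -2.02. Of 14 genes that receptor signals induce early, 8 were tested, 1 was lower and 7 did not pass, with a median of -0.49, a count too small to set apart from the 21.6% of all genes tested that were lower. That 1 was the activation marker Cd69, at -1.06 (edgeR adjusted p = 0.0388), a call lost in 9 of 17 other settings, with values between -1.07 and -0.66 in those. Without the filter 1 of the 14 was lower and 0 higher, and the 1 was Nfkbid in place of Cd69. Nfkbid, named after its values were seen, was at -3.03 there (edgeR adjusted p = 0.00011). It had 1, 1, 2 and 1 counts in titled CT-26 libraries, against 12, 9, 7 and 24 counts in titled control libraries. The transcription factor gene Myc and the phosphatase gene Dusp2 had -0.07 and -0.52 and did not pass, although Dusp2 passed without titled CT-26 1, at -0.86 (edgeR adjusted p = 0.0257).

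B cell receptor signalling, the parallel pathway of the other main lymphocyte of spleen, was read the same way. Of its 14 genes 13 were lower, where 21.6% of all genes tested were, and 0 were higher. Without the filter on low counts 12 were lower and 0 higher, where 9.17% and 8.87% of 18766 genes were. Vav2 did not pass, at -0.77 (edgeR adjusted p = 0.0893), but passed without titled CT-26 2, at -1.09 (adjusted p = 0.0347). Cd22, an inhibitory receptor of B cells, and Cd79b and Cd79a, the signalling chains of the B cell receptor, had log2 fold changes of -2.29, -2.02 and -1.86. The median over the list was -1.18, against -1.66 over the tested T cell receptor members, and that difference was not tested.

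**Figure D4:**
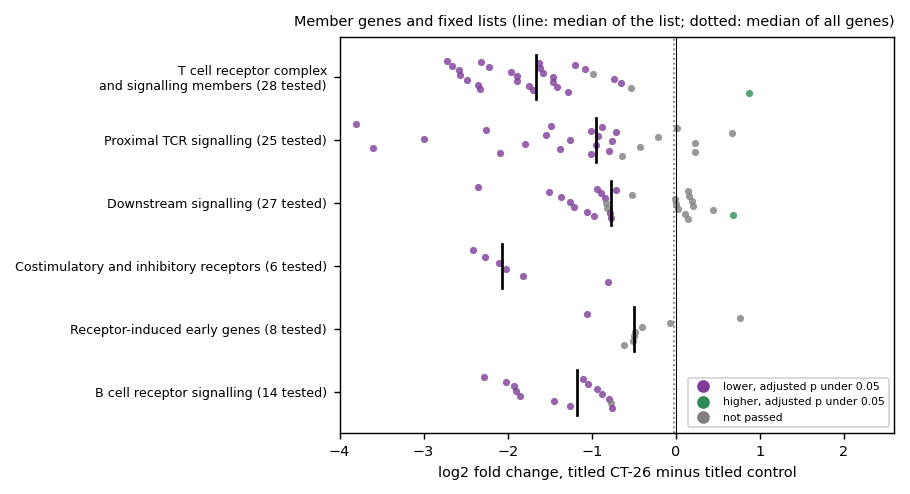
Log2 fold change (horizontal axis, titled CT-26 over titled control) of each tested gene in the member set and the 5 pathway lists, with a line at the median of each list and a dotted line at that of all genes tested. The member median of -1.66 and the B cell receptor median of -1.18 lie on the same side of the dotted line at -0.02.

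A second readout of Trac, Trbc1 and Trbc2 came from the amplified T cell receptor libraries, in which reads were assigned to the alpha chain (TRA) or the beta chain (TRB). These held 79721, 34295, 45231 and 40237 reads in titled CT-26 libraries, against 182672, 159604, 236935 and 169434 reads in titled control libraries. Reads of amplified libraries depend on how they were pooled and are not numbers of transcripts, so the balance of the chains was compared instead. That balance is still a share of amplified reads and not of transcripts. How evenly the 2 chains were amplified was not tested. TRB took 39.2%, 46.4%, 43.9% and 38.5% of TRA and TRB reads in titled CT-26 libraries, against 63.2%, 61.8%, 66.6% and 65.9% in titled control libraries. The sets did not overlap, and the exact 95% binomial interval of a library's share was at most 1.07 percentage points wide, for counting error only. The mean share was 42.0% ± 3.77 in titled CT-26 libraries and 64.4% ± 2.24 in titled control libraries (SD, n = 4 each), a difference of -22.4 percentage points. Its exact two-sided permutation p was 0.0286, the smallest that 70 assignments can give, and it did not pass when adjusted over the 2 shares tested (adjusted p = 0.0571). With 4 libraries in each set, a share at that smallest p cannot pass over 2 shares unless the other share reaches it too. Without titled CT-26 1 the difference was -21.5 percentage points. There it passed (adjusted exact p = 0.0286) only because the other share, given below, also reached the smallest p.

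The same balance was also read from the RNA libraries. Trbc1 and Trbc2 together took 80.4%, 84.6%, 83.7% and 71.9% of Trac, Trbc1 and Trbc2 counts in titled CT-26 libraries, against 91.1%, 88.2%, 83.6% and 85.4% in titled control libraries. The ranges overlapped, and with as few as 171 counts in a library the exact 95% binomial intervals were up to 14.0 percentage points wide. By RNA the mean beta share was 80.2% ± 5.78 in titled CT-26 libraries and 87.1% ± 3.30 in titled control libraries (SD, n = 4 each), a difference that was not tested.

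The beta chain genes lie in 2 clusters, TRBJ1 segments before Trbc1 and TRBJ2 segments before Trbc2, and a rearrangement to TRBJ2 removes Trbc1 from that chromosome. TRBJ1 segments took 31.5%, 34.9%, 41.3% and 37.6% of TRBJ1 and TRBJ2 reads in titled CT-26 libraries, against 32.3%, 34.0%, 33.1% and 32.6% in titled control libraries. The titled CT-26 libraries spread to both sides of the titled control libraries. The mean share was 36.3% ± 4.14 in titled CT-26 libraries and 33.01% ± 0.746 in titled control libraries (SD, n = 4 each; exact permutation p = 0.2, adjusted p = 0.2). Without titled CT-26 1 the difference was 4.94 percentage points and passed together with the TRB share (adjusted exact p = 0.0286). Without titled CT-26 3 it was 1.68 percentage points (adjusted exact p = 0.371). By RNA counts Trbc1 took 8.99%, 9.52%, 9.95% and 7.32% of Trbc1 and Trbc2 counts in titled CT-26 libraries, against 8.63%, 10.7%, 12.6% and 12.4% in titled control libraries, with exact 95% binomial intervals up to 10.04 percentage points wide. These overlapped, and they rest on the stretches by which these genes differ.

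**Figure D5:**
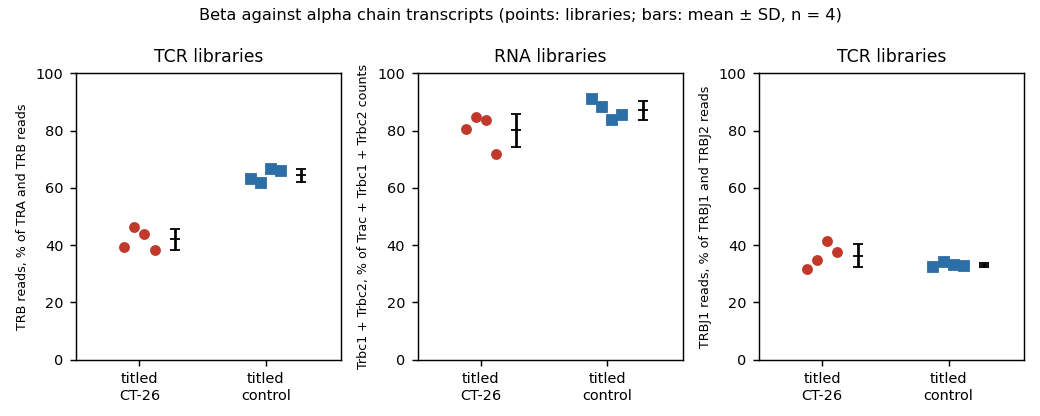
Share of TRB among TRA and TRB reads (left), of Trbc1 and Trbc2 among constant region RNA counts (middle) and of TRBJ1 among TRBJ1 and TRBJ2 reads (right), in percent. Each point is 1 library, titled CT-26 left of titled control, with bars for mean ± SD (n = 4). The TRB read shares separate, at 38.5% to 46.4% in titled CT-26 libraries against 61.8% to 66.6% in titled control libraries, and the other shares overlap.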

How the data were processed

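The deposited RNA tables hold raw counts of fragments per gene. The tool was featureCounts 2.0.1 in paired mode, per the file headers, on GENCODE mouse release 29 (GRCm39), with no option for strand, for reads that map to several places or for reads that overlap several genes. Per the submitters' processing notes, Trimmomatic 0.39 and STAR 2.7.10a were used, and both GRCm39 and GRCm38 are listed. The T cell receptor tables were deposited with a read count for each assembled CDR3, from a program not given in the sources used here. Per the labels, a Takara MiniBEST kit gave the total RNA, and a SMARTer mouse TCR kit is named for library construction.

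From these counts, genes passing filterByExpr were kept, TMM factors were applied and each gene went into the robust quasi-likelihood test of edgeR, without covariates, adjusted over all 6408 genes by the method of Benjamini and Hochberg. The SE is the log2 fold change divided by the square root of its F statistic. Ratios and shares used exact two-sided permutation over 70 assignments of 4 against 4 libraries. The exact test has a smallest p of 0.0286. Symbols were found for 52081 of 55414 genes. The members, lists and ratios were chosen with earlier results of these data known. All members are named, and in each pathway list the 3 genes of smallest p that passed in each direction and the 2 of highest level that did not. A gene that meets this rule is not reported here. No libraries within a set agreed within counting noise (lowest chi-square per degree of freedom 3.696). Sequencing lanes were read from the names of the deposited tables. Sequences come from RefSeq on GRCm38.p6 (promoters, 21 of 33 members matched, the first window listed) and GENCODE on GRCm38 (exons), and no coordinate was converted. Other settings were DESeq2, limma voom, no TMM, other filters, mitochondrial genes taken out, lane, a replicate block and each library left out. The procedure was tested on simulated data. B cell receptor tables were not used. The software was edgeR 4.0.16, limma 3.58.1 and DESeq2 1.42.0 in R 4.3.3, and scipy 1.17.1, matplotlib 3.10.9, pandas 2.3.3 and numpy 2.4.6 in Python 3.11.15.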

Additional observations from a re-analysis of the deposited data

Results flagged for a closer look

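Over both sets together, 94 groups of 4 values were checked for a library far from the other 3 of its set. Of the 94, 5 were marked, where chance marks about 1 in 20. Titled CT-26 1 stood above the other titled CT-26 libraries for Lat, at 25.64 CPM, and for Cd28, at 54.82 CPM. Titled control 4 stood above the other titled control libraries for Ptpn22, at 111.3 CPM. Titled control 3 stood above the rest of its set in the log2 ratio of Trac over Cd3e, at 2.74, and in that of Nfatc1 over Nfatc2, at 6.056, where Nfatc2 had 0 counts in that library.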

How the results depend on the processing

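Of the 28 tested members, 23 kept their direction and their side of the threshold in all 17 other settings, the exceptions being Cd3d, Zap70, Fyn, Vav1 and Nfatc1. Members called lower numbered 22 to 27 and members called higher 1 in each. With library totals in place of TMM, all genes moved by a median of 0.37 (log2): 725 genes, against 1381, were then lower and 1936, against 1359, higher, 26 genes of the pathway lists (51 in the reported fit) were lower and 4 (1 in the reported fit) higher, and the member median was -1.29. With lane as a factor 0 pathway genes were higher, and with each library left out 0 to 3. Leaving out each library gave member medians of -1.97 to -1.55, differences in TRB share of -23.87 to -21.23 percentage points and in TRBJ1 share of 1.68 to 4.94. Without titled CT-26 1 both shares passed, at -21.49 and 4.94 (exact permutation, adjusted p = 0.0286 each). Neither could have passed there without the other.

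Values near 0 changed sign. Grb2 was -0.00863 with the replicate block, -0.0135 with limma voom and -0.168 to 0.168 without single libraries. Myc was 0.30 without TMM, 0.0069 without a filter, 0.0841 with lane, and -0.119 to 0.0307 without single libraries. Among the ratios without single libraries, Icos over Cd28 was -0.60 to 0.25, Ptprc over Cd3e -0.36 to 0.11, Nfatc1 over Nfatc2 -0.79 to 0.29 and Trac over Cd3e -0.60 to 0.053. The cause was not tested.

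No label ties equal replicate numbers, and the correlations of equal numbers lay between -0.0865 and 0.0774, so they were not treated as pairs. With the replicate number as a block 1328 genes were lower and 1340 higher, and 25 members were lower and 1 higher. For the ratios and shares, 16 sign flips within equal numbers cannot give an exact p below 0.125, and 0 passed. Taking out erythroid, neutrophil and mitochondrial genes before scaling was chosen after seeing the data. The share of TRBC1 among constant region annotations was not run, since those reads are annotated TRBC without a number. Depth limits the 5 members under the filter.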
